A study of Rattus norvegicus with 16 samples.

Results

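The 9 genes described here encode proteins of blood clotting and of its control: the clotting factors F2, F5, F7, F9, F10, F11 and F12, the clotting inhibitor Serpinc1 (antithrombin) and Plg (plasminogen), the precursor of the enzyme that dissolves clots. They were chosen by name, as the rows of the deposited liver table that carry these symbols. All 9 of the 9 were found among the 22587 symbols of the table, and all 9 passed the filter on low values that left 12791 genes for testing. Clotting proceeds as a cascade in which each factor, a dormant protease or its helper, is switched on by the protein before it, until thrombin turns soluble fibrinogen into fibrin. Antithrombin blocks several of these proteases, and plasmin cuts the finished fibrin. Hepatocytes, the main cells of the liver, make and secrete nearly all of these proteins, so their mRNA levels in liver are those of the organ that supplies plasma.

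Liver mRNA was sequenced in 16 libraries from male rats of a strain that the labels spell Wistar-Wyoto, aged 13 weeks, with 4 libraries in each of 4 groups. The ADREX ozone group had undergone total bilateral adrenalectomy, the removal of both adrenal glands, and breathed ozone at 0.8 ppm for 4 hours, and the ADREX air group had the same surgery and breathed air for 4 hours. The SHAM ozone and SHAM air groups were sham-operated and breathed ozone at the same dose or air for the same time. Ozone is an oxidant gas, and adrenalectomy takes away the adrenal sources of corticosterone and adrenaline; the design asks what ozone does to the liver with and without them. Groups were taken from the sample titles, because the treatment labels call all 8 ADREX libraries ozone-exposed, also the 4 titled as air. The sources used here do not state that each library is a separate animal, so p-values measure the spread between these libraries. Whole liver was sequenced, so fewer cells of a type and less RNA per cell cannot be told apart.

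Libraries held 8372891 to 14096246 reads, and every one of the 9 genes was far above the limit that a count of 0 allows (3 reads, or 0.213 to 0.358 RPM, reads per 1000000 of a library), a limit that covers counting error only. The tissue label was checked with 8 hepatocyte markers, such as albumin, all of which were in the table. Their summed level was 108879 to 200301 RPM in ADREX ozone libraries, 109701 to 145428 RPM in ADREX air libraries, 130912 to 151323 RPM in SHAM ozone libraries and 145364 to 194522 RPM in SHAM air libraries. Markers of neurons and oligodendrocytes were also present, with all 25 listed genes in the table and none at 0 reads in all libraries. Their sum was 861 to 4951 RPM in ADREX ozone libraries, 284 to 1244 RPM in ADREX air libraries, 84.2 to 3000 RPM in SHAM ozone libraries and 48.8 to 888 RPM in SHAM air libraries. The 3 highest sums were those of ADREX ozone 82 (4951 RPM), SHAM ozone 18 (3000 RPM) and ADREX ozone 81 (2067 RPM).

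The promoters of F2, F11 and Plg are shown because these 3 genes varied together most closely within groups, after removal of the group means, and that of F5 because F5 showed the widest difference between groups. Each is the RefSeq sequence of rat assembly GRCr8, from 250 bases before the transcription start to 50 bases from it on, written 5′ to 3′ in the direction of the gene, with motif matches in capitals. All 9 genes matched the RefSeq promoter table. The deposited values were made on another build, rn6, so these coordinates belong to the sequences alone.
F2 (chr3:98065197-98065496, minus strand): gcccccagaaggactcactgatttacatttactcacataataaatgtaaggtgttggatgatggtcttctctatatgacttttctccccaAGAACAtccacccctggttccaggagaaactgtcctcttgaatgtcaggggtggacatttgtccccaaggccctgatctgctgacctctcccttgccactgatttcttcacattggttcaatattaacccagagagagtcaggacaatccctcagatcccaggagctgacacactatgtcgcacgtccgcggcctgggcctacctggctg
F11 (chr16:53720252-53720551, plus strand): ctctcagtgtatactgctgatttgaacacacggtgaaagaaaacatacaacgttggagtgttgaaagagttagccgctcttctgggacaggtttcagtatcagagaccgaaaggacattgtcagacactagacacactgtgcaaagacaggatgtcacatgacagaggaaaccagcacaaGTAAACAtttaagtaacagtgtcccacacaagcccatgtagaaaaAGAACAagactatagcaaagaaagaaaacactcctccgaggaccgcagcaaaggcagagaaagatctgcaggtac
Plg (chr1:50915357-50915656, minus strand): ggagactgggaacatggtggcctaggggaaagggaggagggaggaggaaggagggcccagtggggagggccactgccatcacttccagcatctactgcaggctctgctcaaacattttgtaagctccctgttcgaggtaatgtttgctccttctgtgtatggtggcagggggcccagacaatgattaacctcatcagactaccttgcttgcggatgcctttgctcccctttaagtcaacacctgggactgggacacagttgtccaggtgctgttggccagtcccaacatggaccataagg
F5 (chr13:79046407-79046706, plus strand): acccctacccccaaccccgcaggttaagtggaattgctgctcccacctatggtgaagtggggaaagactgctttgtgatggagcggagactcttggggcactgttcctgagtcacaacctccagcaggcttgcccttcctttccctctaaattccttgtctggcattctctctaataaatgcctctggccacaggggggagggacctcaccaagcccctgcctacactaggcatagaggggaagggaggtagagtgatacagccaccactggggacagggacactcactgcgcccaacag
The capitals in F2 mark AGAACA, the reverse complement of the single glucocorticoid element TGTTCT, 160 bases before its start, and F11 has it 25 bases before its start. This short motif occurs in 20.7% of all promoters. F11 further holds GTAAACA, the reverse complement of the FOXA motif TGTTTAC, found in 3.78% of promoters. None of the 10 motifs searched, each on both strands over the 33469 promoters of the table, had a match in the Plg, the F5 or the F10 window.

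Among the other members, F7 holds TGACCTTTGCCC, a match on the opposite strand to the HNF4 direct repeat, 48 bases before its start. The repeat searched was GGNCA and AGNTCA with an A between them. HNF4 is a nuclear receptor that marks hepatocytes, and this 12-base motif occurs in 0.17% of all promoters. F9 holds TGTACTTTG, a match to the HNF4 core form CAAAGTNCA (1.24% of promoters), 77 bases before its start, the HNF6 motif ATTGAT (8.06%) and the C/EBP motif TTGCNNAA (10.6%). The C/EBP motif also matched in Serpinc1, and the HNF6 and FOXA motifs in F12. No member matched the DBP motif TTATGTAA (0.893% of promoters), the full glucocorticoid site, ACA and TGTTCT with 3 bases of any kind between them (0.415%), the full estrogen site, GGTCA and TGACC with 3 bases of any kind between them (0.0269%), or the TATA box TATAAA (14.2%). The full glucocorticoid site contains the single element, so these matches are not independent. A match is a stretch of letters in the window and not a shown binding site, and the absence of a match says only that these letters are not in it.

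The clearest features of the 9 genes were the low F5 and the high F2 of adrenalectomized rats that breathed ozone, neither of which passed the test of the whole table. Mean F5 was 2883 ± 807 normalized counts in ADREX ozone livers and 4493 to 5308 in the other groups, and mean F2 was 29743 ± 10246 in ADREX ozone livers and 18225 to 23866 in the others (SD, n = 4). By limma with Benjamini-Hochberg adjustment over all genes tested, 0 of the 9 members passed an adjusted p of 0.05 in any of the 5 comparisons. The largest of the 45 fitted member changes was that of F5 for ozone in ADREX rats, −0.89 ± 0.24 on the log2 scale (SE). A p that misses the threshold does not show that levels were equal, so intervals are given with each change. Levels are normalized counts, which are not divided by transcript length, so they can be compared between groups for 1 gene and not between genes.

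**Figure D1:**
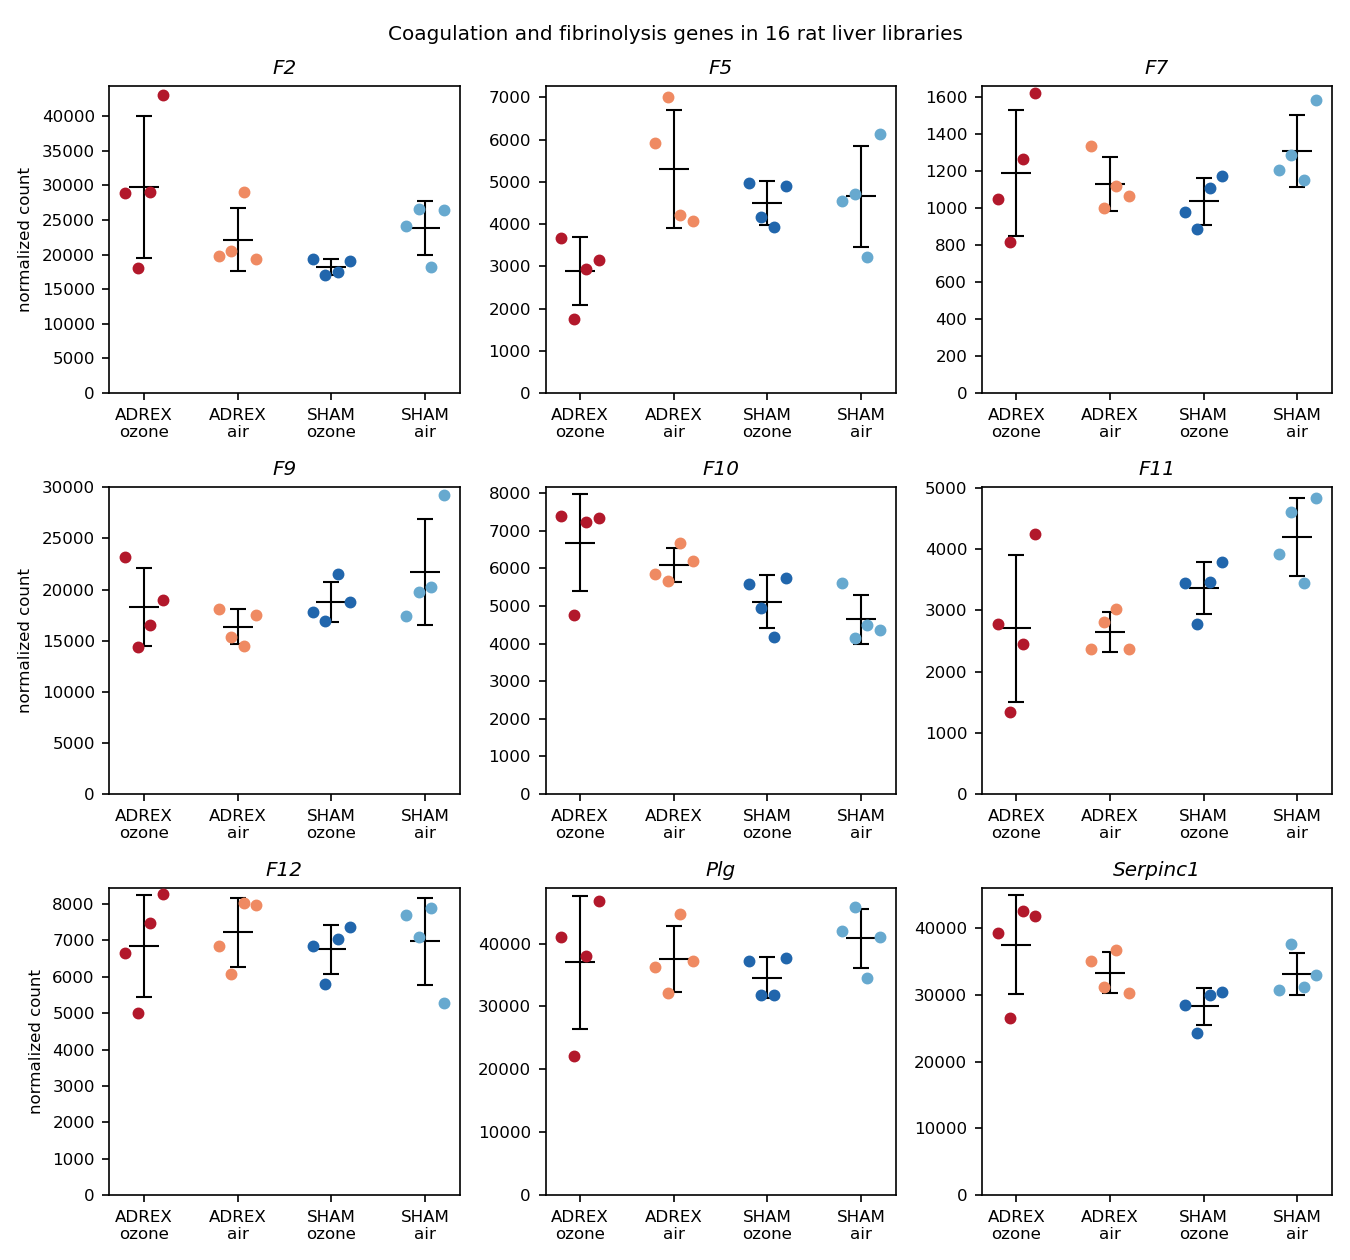
Normalized counts (linear axis from 0) of the 9 genes in each of the 16 libraries, by group, with bars for the mean and SD of 4 libraries. For F5 the 4 ADREX ozone libraries lie at 1765 to 3675 normalized counts, below all others but SHAM air 3, and their coefficient of variation is the largest of the 4 groups in 8 of the 9 genes.

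F12, which starts the contact pathway when blood meets a charged surface, had the closest group means of the 9 genes. Its group means were 6847 ± 1401 in ADREX ozone livers, 7225 ± 948 in ADREX air livers, 6756 ± 673 in SHAM ozone livers and 6980 ± 1193 in SHAM air livers (SD, n = 4 each). The highest group mean was 1.07 times the lowest, and all neighbouring groups in that order overlapped. F12 changes in the 4 comparisons of group pairs lay between −0.09 and 0.06 on the log2 scale, with 95% confidence intervals from −0.47 to 0.44 at their widest.

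F11, the next factor of that pathway, showed its lower levels in adrenalectomized rats. The ADREX ozone libraries 81 to 84 held 2771, 1342, 2457 and 4246 normalized counts of F11, and the ADREX air libraries 65 to 68 held 2367, 2805, 3026 and 2368. The SHAM ozone libraries 17 to 20 held 3440, 2777, 3468 and 3790, and the SHAM air libraries 1 to 4 held 3918, 4599, 3443 and 4838. All ADREX air libraries were thus below all SHAM air libraries, while the ADREX ozone libraries ran from the lowest value of all 16 to one within the SHAM air range. In air, ADREX against SHAM gave −0.66 ± 0.25 on the log2 scale (SE; 95% interval −1.2 to −0.13; limma adjusted p = 0.157). Under ozone the same contrast gave −0.42 ± 0.25 (−0.96 to 0.11; limma adjusted p = 0.262), and −0.13 without library ADREX ozone 82. The mean hepatocyte marker sum was also lower in air, at 125407 RPM in ADREX libraries and 169520 RPM in SHAM libraries. Albumin, with a median of 91113 RPM, was the most abundant of these markers. For ADREX against SHAM in air, 5 of the 9 member changes were negative and 4 positive. The part of the marker sum in the F11 values was not tested. In the RefSeq gene order F11 is the neighbour of Klkb1, which is described further on.

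F9, the vitamin K-dependent protease that is missing in haemophilia B, had its highest mean in SHAM air livers. It averaged 18279 ± 3784 normalized counts in ADREX ozone livers, 16372 ± 1707 in ADREX air livers, 18779 ± 1978 in SHAM ozone livers and 21699 ± 5207 in SHAM air livers (SD, n = 4 each). Library SHAM air 4, at 29286, was the highest of all, and each pair of neighbours in this order overlapped. ADREX against SHAM in air gave −0.38 ± 0.19 on the log2 scale (SE; 95% interval −0.78 to 0.02; limma adjusted p = 0.264), and the other F9 changes lay between −0.19 and 0.33.

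F7, which with tissue factor opens the extrinsic pathway after injury, varied little between group means. Mean F7 was 1187 ± 341 normalized counts in ADREX ozone livers, 1130 ± 145 in ADREX air livers, 1036 ± 127 in SHAM ozone livers and 1307 ± 194 in SHAM air livers (SD, n = 4 each). Its extremes were both ADREX ozone libraries, 816 in library 82 and 1618 in library 84, and all neighbouring groups overlapped. The change with ozone in SHAM rats was −0.33 ± 0.19 on the log2 scale (SE; 95% interval −0.73 to 0.06; limma adjusted p = 0.352).

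F10, where the 2 pathways meet, showed its higher levels in adrenalectomized rats. In ADREX ozone libraries 81 to 84 it stood at 7405, 4761, 7227 and 7346 normalized counts, and in ADREX air libraries 65 to 68 at 5849, 5655, 6672 and 6195. In SHAM ozone libraries 17 to 20 it stood at 5599, 4953, 4183 and 5743, and in SHAM air libraries 1 to 4 at 5612, 4149, 4485 and 4362. All ADREX air libraries were above all SHAM air libraries, by a margin of 5655 against 5612 at the closest. Under ozone, 3 ADREX libraries were above all SHAM libraries and library 82 lay within the SHAM range. ADREX against SHAM gave 0.40 ± 0.17 in air (log2, SE; 95% interval 0.04 to 0.75; limma adjusted p = 0.202) and 0.37 ± 0.17 under ozone (0.02 to 0.73; limma adjusted p = 0.142). F7 and F10 lie next to each other in the RefSeq gene order, after Proz, and their ADREX against SHAM changes in air differed in sign, with −0.21 for F7 and 0.40 for F10. Whether the 2 genes differed in this was not tested.

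F5, the cofactor that speeds the making of thrombin by activated F10, had its lowest level in ADREX ozone livers. The ADREX ozone libraries 81 to 84 held 3675, 1765, 2940 and 3150 normalized counts of F5, and the ADREX air libraries 65 to 68 held 5913, 7010, 4226 and 4085. The SHAM ozone libraries 17 to 20 held 4963, 4158, 3936 and 4915, and the SHAM air libraries 1 to 4 held 4555, 4707, 3223 and 6146. Every ADREX ozone library was below every ADREX air and every SHAM ozone library, whereas SHAM air 3 lay within the ADREX ozone range. Ozone against air in ADREX rats gave −0.89 ± 0.24 on the log2 scale (SE; 95% interval −1.4 to −0.38), or 0.54 times the air level (limma adjusted p = 0.121; edgeR 0.085; DESeq2 0.016). In SHAM rats the change with ozone was −0.02 ± 0.24 (−0.53 to 0.49; limma adjusted p = 0.971), and 0.04 with libraries scaled to equal totals. The difference between the ozone effects, ADREX minus SHAM, was −0.87 ± 0.34 (−1.59 to −0.15; limma adjusted p = 0.303), so it was not established by the test of the whole table. Under ozone, ADREX against SHAM gave −0.68 ± 0.24 (−1.19 to −0.17; limma adjusted p = 0.0728; DESeq2 0.0369). Neural marker sums moved with these values, since ADREX ozone livers had the highest of the 4 groups. With the neural score in the model the F5 change with ozone in ADREX rats was −0.67, and without library ADREX ozone 82 it was also −0.67.

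F2, prothrombin, had its highest mean in ADREX ozone livers and its lowest in SHAM ozone livers. The ADREX ozone libraries 81 to 84 held 28882, 18062, 28975 and 43054 normalized counts of F2, and the ADREX air libraries 65 to 68 held 19747, 20524, 29019 and 19370. The SHAM ozone libraries 17 to 20 held 19342, 17053, 17443 and 19063, and the SHAM air libraries 1 to 4 held 24083, 26646, 18273 and 26461. In normalized counts under ozone, 3 ADREX libraries were above all SHAM libraries and library 82 lay among the SHAM libraries. In RPM these groups did not overlap, with 1460 to 2829 in ADREX ozone libraries and 1137 to 1315 in SHAM ozone libraries. The ADREX air and SHAM ozone groups also did not overlap, by a margin of 19370 against 19342. ADREX against SHAM under ozone gave 0.64 ± 0.23 on the log2 scale (SE; 95% interval 0.16 to 1.13), or 1.56 times the SHAM level (limma adjusted p = 0.0748; edgeR 0.108; DESeq2 0.0483). Ozone against air gave 0.38 ± 0.23 in ADREX rats (−0.11 to 0.86; limma adjusted p = 0.412) and −0.38 ± 0.23 in SHAM rats (−0.86 to 0.11; limma adjusted p = 0.391). The difference of these, ADREX minus SHAM, was 0.75 ± 0.32 (0.07 to 1.44; limma adjusted p = 0.341).

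Serpinc1, the gene of antithrombin, the main inhibitor of thrombin and activated F10, had its lowest mean in SHAM ozone livers. Its values were 39257, 26585, 42624 and 41806 normalized counts in ADREX ozone libraries 81 to 84, and 35052, 31169, 36749 and 30347 in ADREX air libraries 65 to 68. They were 28497, 24368, 29959 and 30385 in SHAM ozone libraries 17 to 20, and 30772, 37706, 31153 and 32976 in SHAM air libraries 1 to 4. All SHAM ozone libraries were below all SHAM air libraries, by a margin of 30385 against 30772. Of the 4 ADREX ozone libraries, 3 were above every SHAM library of either exposure. In RPM the SHAM groups overlapped, at 1827 to 2046 with ozone and 1963 to 2502 in air. The ADREX ozone libraries, at 2149 to 3050 RPM, were all above the SHAM ozone libraries on that scale. ADREX against SHAM under ozone gave 0.39 ± 0.18 on the log2 scale (SE; 95% interval 0.01 to 0.76; limma adjusted p = 0.148), and ozone against air in SHAM rats gave −0.23 ± 0.18 (−0.6 to 0.15; limma adjusted p = 0.503).

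Plg, the plasmin precursor and the only fibrinolytic gene of the 9, had group means within 1.18-fold of each other. Its values were 41087, 22133, 38092 and 46743 normalized counts in ADREX ozone libraries 81 to 84, with means of 37014 ± 10549 in ADREX ozone livers, 37569 ± 5259 in ADREX air livers, 34597 ± 3287 in SHAM ozone livers and 40848 ± 4688 in SHAM air livers (SD, n = 4 each). Both the lowest and the highest of all 16 Plg values were ADREX ozone libraries, and all neighbouring groups overlapped. The Plg change with ozone was −0.06 ± 0.22 on the log2 scale in ADREX rats (SE; 95% interval −0.52 to 0.39; limma adjusted p = 0.913) and −0.24 ± 0.22 in SHAM rats (−0.69 to 0.22; limma adjusted p = 0.567).

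**Figure D2:**
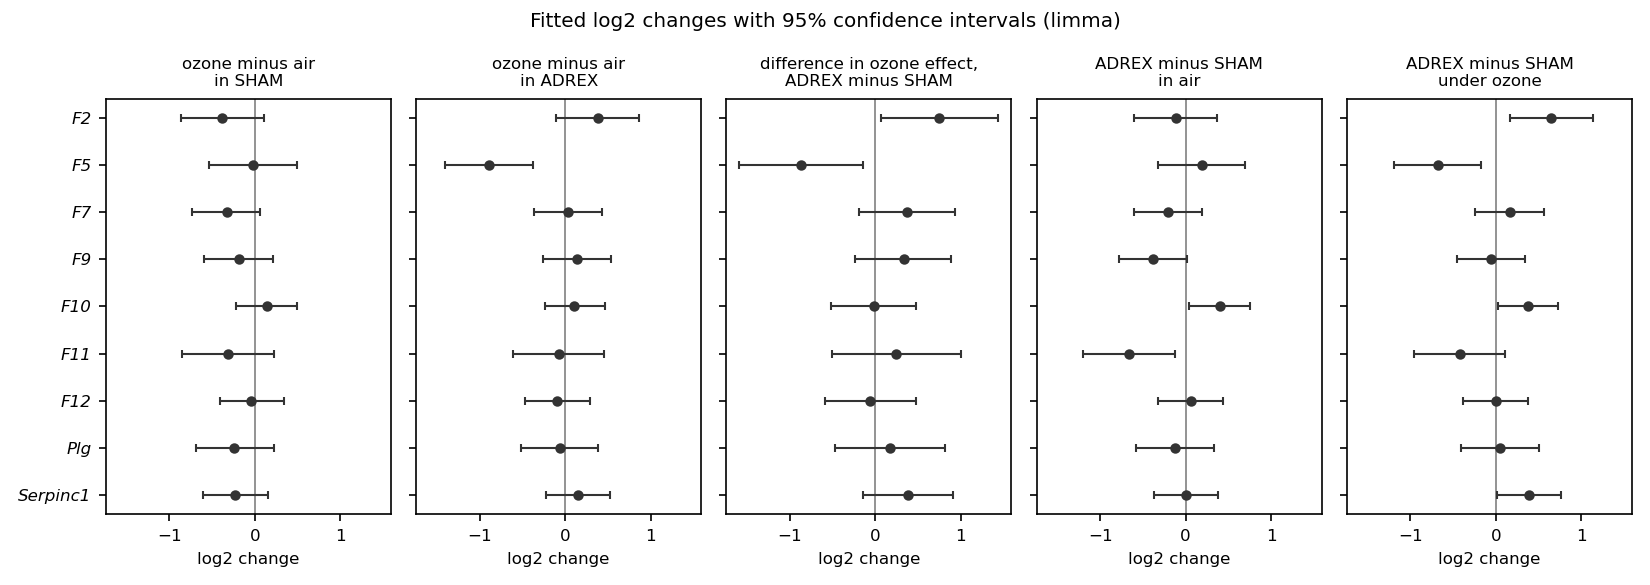
Fitted log2 changes of the 9 genes with 95% confidence intervals (horizontal axis) in the 5 comparisons, with a line at 0. The F5 interval lies below 0 for ozone in ADREX rats (−1.4 to −0.38) and the F2 interval above 0 for ADREX against SHAM under ozone (0.16 to 1.13), although neither passed the adjusted threshold.

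The comparison of ozone with air in sham-operated rats asks what the gas did to the liver with the adrenal glands in place. Of the 9 changes, 8 were negative, and the exception was F10 at 0.14. With libraries scaled to equal totals F5 and F12 were positive too, at 0.04 and 0.03. Their median was −0.23, beside 0.01 for all genes tested, on the log2 scale. By limma, 0 of 9 members passed, beside 1.58% of all genes tested. Likewise 0 members had an unadjusted p under 0.05 (18.4% of all genes), and 0 members were called by edgeR (1.38%) or DESeq2 (4.19%). In normalized counts the groups did not overlap for 1 member, Serpinc1, beside 11.1% of all genes. In RPM the Serpinc1 groups overlapped.

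In adrenalectomized rats the same exposure contrast gave 5 positive and 4 negative member changes, with a median of 0.03 beside 0.06 for all genes tested. F7, at 0.03, was negative with TMM scaling (−0.05) and with median of ratios scaling (−0.02). Again 0 of 9 members passed by limma (0.125% of all genes) and 0 by edgeR (0.383%), and DESeq2 called 1, F5 (4.46%). F5 was also the 1 member with an unadjusted p under 0.05 (17.8% of all genes) and the 1 member whose groups did not overlap (9.97%). The difference between the 2 ozone effects, ADREX minus SHAM, had a member median of 0.24 beside 0.07 for all genes. Of the 9, 0 passed by limma (0.109% of all genes), edgeR (0.188%) or DESeq2 (1.94%), and 2, F2 and F5, had an unadjusted p under 0.05 (12.9% of all genes). Their differences were opposite in sign, 0.75 for F2 and −0.87 for F5.

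Adrenalectomy itself, compared in air, gave a member median of −0.11 beside 0.04 for all genes tested. Here 0 of 9 members passed by limma (3.53% of all genes), edgeR (2.96%) or DESeq2 (6.53%), and 2, F10 and F11, had an unadjusted p under 0.05 (20.2% of all genes). F10 and F11 were also the 2 members whose groups did not overlap (9.26% of all genes), F10 with all ADREX libraries above and F11 with all below. Under ozone, where adrenalectomy separated the livers most, the member median was 0.05 beside 0.11 for all genes. Of the 9 members 0 passed by limma (12.5% of all genes) and 0 by edgeR (12.4%), whereas DESeq2 called 2, F2 and F5 (17.1%). Unadjusted p was under 0.05 for 4 members, F2, F5, F10 and Serpinc1 (31.2% of all genes). In normalized counts the groups did not overlap for 1, F5 (20.5%). In RPM those of F2 and Serpinc1 did not overlap either, and the share of all genes in RPM is not given here. The 5 comparisons share libraries, each group entering 3 of them, so their values stand side by side and are not independent of each other.

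The ADREX ozone libraries spread widely, with library 82 at the low end throughout. ADREX ozone 82 was the lowest of its group for all 9 members, a position it held for 26.5% of all genes tested. It lay between 42.5% of the mean of the other 3 libraries for F11 and 73.4% for F9, with F2 at 53.7%, F5 at 54.2% and Plg at 52.7%. SHAM ozone 18 was the lowest of its group for 6 of the 9 members (24.7% of all genes). These are also the libraries with the 2 highest neural marker sums, 4951 RPM and 3000 RPM. ADREX ozone 81, with the next highest sum (2067 RPM), was instead the highest of its group for F5 (3675), F9 (23210) and F10 (7405). ADREX ozone 84 was the highest of all 16 libraries for F2 (43054), F7 (1618), F12 (8276) and Plg (46743). How much of the spread each library carried was not tested. The largest coefficient of variation of the 4 groups was that of ADREX ozone for 8 of the 9 members, beside 29.2% of all genes tested, and the exception was F9. The median coefficient of variation of the members was 28.0% in ADREX ozone livers, 12.9% in ADREX air livers, 10.5% in SHAM ozone livers and 15.2% in SHAM air livers. For all genes tested it was 25.2% in ADREX ozone livers, 23.5% in ADREX air livers and 24.6% in SHAM air livers, and it was lower in SHAM ozone livers.

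Without ADREX ozone 82, 3 members passed in the comparison of ADREX with SHAM under ozone, where 7.76% of all genes passed. They were F2 at 0.86 on the log2 scale (limma adjusted p = 0.0195), F10 at 0.53 (adjusted p = 0.0425) and Serpinc1 at 0.55 (adjusted p = 0.0445), all higher in ADREX rats. F5 gave −0.46 in that fit (limma adjusted p = 0.211). With each of the 16 libraries left out in turn, the change ran from 0.44 to 0.86 for F2 and from 0.28 to 0.53 for F10. It ran from 0.32 to 0.55 for Serpinc1 and from −0.82 to −0.46 for F5. Leaving out ADREX ozone 82 thus gave the upper end of each range. With the neural score as a covariate over all 16 libraries, F2 alone among the members passed, at 0.88 (limma adjusted p = 0.0252; 8.55% of all genes). Without the 3 libraries of highest neural sum, 0 members passed, beside 3.74% of all genes, and F2 stood at 0.93 (limma adjusted p = 0.061).

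**Figure D3:**
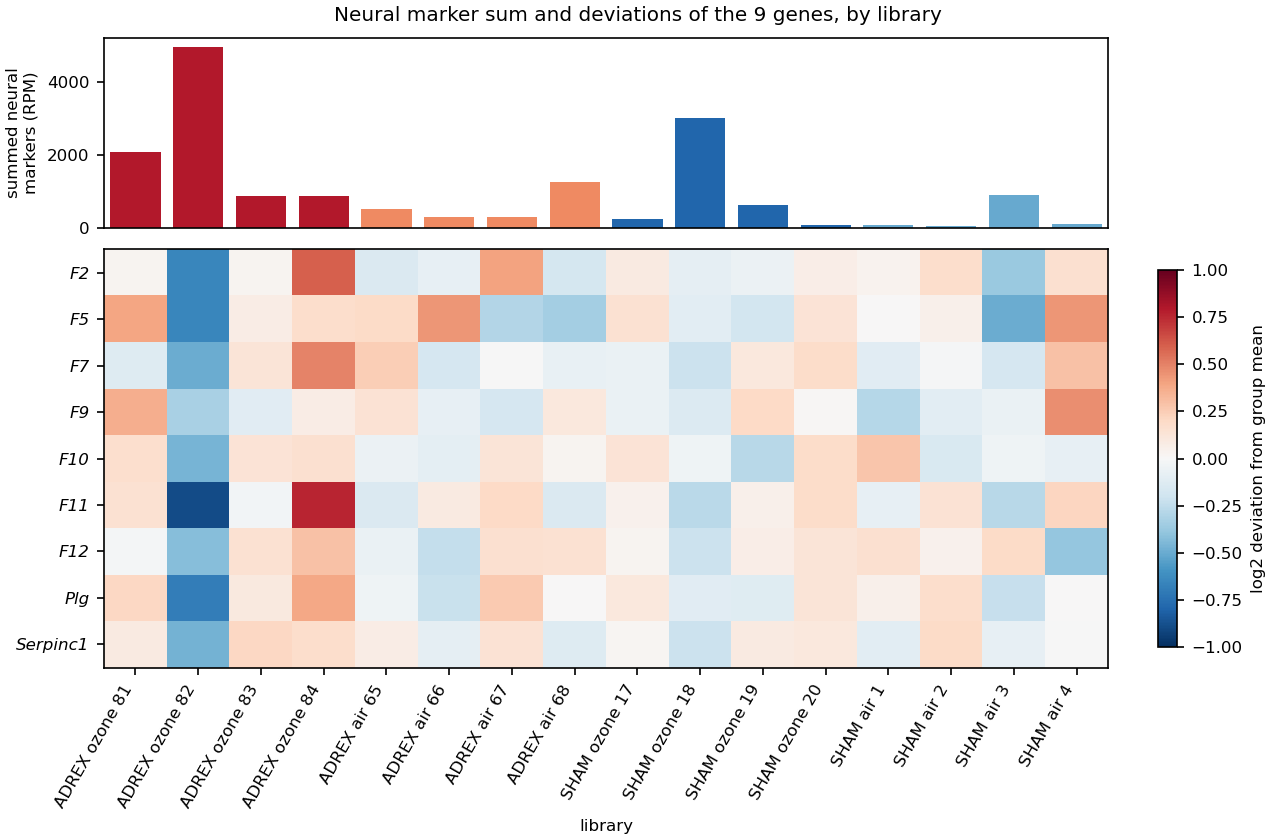
Summed level of 25 neuron and oligodendrocyte markers (RPM, bars from 0) above a map of each gene's log2 deviation from its group mean (colour, −1 to 1) in each library (columns). ADREX ozone 82 has the highest marker sum, 4951 RPM, and is below its group mean in all 9 genes.

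Within groups most pairs of members were positively correlated, with a lower median without ADREX ozone 82. After removal of the group means, Pearson's r between pairs of members over the 16 libraries had a median of 0.54 over the 36 pairs and a range of −0.1 to 0.93, and 10 pairs were above 0.7. The closest pairs were F2 with F11 (0.93), F2 with Plg (0.91) and F11 with Plg (0.87), whose promoters are printed above. Without ADREX ozone 82 the median was 0.23 and the range was −0.72 to 0.86. In that set 2 pairs remained above 0.7, F2 with F11 (0.86) and F2 with Plg (0.84). F5 and F12 formed the most opposed pair there (−0.72). These values describe libraries that share depth and tissue composition across genes, and their part in the correlations was not tested. Without removal of the group means the F2 and F11 pair had an r of 0.38, and the highest was F2 with Serpinc1 (0.85). The correlation with the neural score within groups was negative for all 9 members, from −0.64 for Serpinc1 to −0.03 for F9. The same values for other genes are not given here, neither for pairs nor for the neural score.

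The genes whose levels over the 16 libraries were most like each member were found by Pearson's r among the genes tested. Lonp1, a mitochondrial protease, was most like F11 (0.947), and Man2b1, a lysosomal mannosidase, most like Plg (0.931). Hint2 was most like F2 (0.919) and Kdm2a most like F5 (0.91), followed by Apob, the main protein of liver lipoproteins (0.906). Fkbp9 was most like F7 (0.893). For the others the first 2 were Cnpy4 and Slc17a4 for F9 (0.818 and 0.781), and Asgr2 and Mbd3 for F10 (0.894 and 0.892). They were Cactin and Bag6 for F12 (0.861 and 0.845) and Tapbpl and Ctsa for Serpinc1 (0.847 and 0.842). The second for F11 was Ptprk (0.945) and for Plg Prpf6 (0.88). The mean profile of the 9 was most like Gsdmd (0.871) and Habp2 (0.866), a plasma protease that can activate F7, and next Phykpl (0.857), Ext2 (0.853) and Man2c1 (0.853). These ranks are the upper end of correlations with all genes tested, which share libraries and depth, and they are a description only.

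The rest of the clotting system, with 8 transcription factors, was read from 5 lists of 44 genes in all, of which 42 were in the table. Kng1 and Kng2 were not analysed here, and F13a1, Serpina5, Tfpi2, Plaur and Vkorc1l1 were under the filter on low values. Among 10 tested clotting factors and cofactors outside the members, 0 passed with ozone in either surgery group or for the difference by limma, edgeR or DESeq2. An unadjusted p under 0.05 was reached there by 1, 0 and 0 (18.4%, 17.8% and 12.9% of all genes tested). In air 1 was higher in ADREX than in SHAM rats, and under ozone 2 were, with 0 lower in both (1.49% of all genes tested were higher in air and 6.04% under ozone). The list's median change was 0.14 in air, beside 0.04 for all genes, and 0.34 under ozone, beside 0.11.

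Kng1l1, a kininogen row, rose in adrenalectomized rats in both exposures. It had 279471, 78055, 74416 and 75799 normalized counts in ADREX ozone libraries 81 to 84 and 98143, 169445, 119333 and 84637 in ADREX air libraries 65 to 68. SHAM ozone libraries 17 to 20 had 45407, 49400, 30965 and 26828, and SHAM air libraries 1 to 4 had 30410, 33184, 27488 and 37991, so all ADREX libraries were above all SHAM libraries. ADREX against SHAM gave 1.83 ± 0.37 on the log2 scale in air (SE; limma adjusted p = 0.0124) and 1.51 ± 0.37 under ozone (limma adjusted p = 0.016). The call in air was lost without ADREX air 66 (1.64; adjusted p = 0.0511) and that under ozone without SHAM ozone 20 (1.36; adjusted p = 0.0593), without the 3 libraries of highest neural sum (1.16; adjusted p = 0.0561) and in a fit to the compared groups alone (adjusted p = 0.0549). In the RefSeq table this symbol is a synonym of Kng1. Rats carry several similar kininogen genes, so which of them these reads came from is uncertain.

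Klkb1, plasma prekallikrein, which activated F12 cleaves, was higher in ADREX than in SHAM rats under ozone, where SHAM rats had their lower level. It had 8749, 5916, 8010 and 11161 normalized counts in ADREX ozone libraries 81 to 84, against 5353, 3837, 5885 and 4421 in SHAM ozone libraries 17 to 20, with no overlap. The change was 0.78 ± 0.20 on the log2 scale (SE; limma adjusted p = 0.0192), with 0.74 left without SHAM ozone 20 (adjusted p = 0.0612) and 0.87 without the 3 libraries of highest neural sum (adjusted p = 0.0502). In air it was 0.26 ± 0.20 (limma adjusted p = 0.467), and the difference between the 2 exposures, which equals the difference in ozone effects, was 0.52 ± 0.28 (limma adjusted p = 0.437). F11, its neighbour in the gene order and a protease of the same family, gave −0.42 in the comparison under ozone.

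The fibrinogen genes Fga, Fgb and Fgg, which encode the 3 chains of the clot's own protein, varied widely between libraries of a group. Fga ranged from 36885 to 168558 normalized counts over ADREX ozone libraries, 64489 to 196740 over ADREX air libraries, 49178 to 72192 over SHAM ozone libraries and 51217 to 122340 over SHAM air libraries. Under ozone ADREX against SHAM gave 0.62 ± 0.44 for Fga, 0.42 ± 0.42 for Fgb and 0.79 ± 0.36 for Fgg on the log2 scale (SE; limma adjusted p = 0.351, 0.511 and 0.15). In SHAM rats ozone against air gave −0.59 ± 0.44 for Fga, −0.33 ± 0.42 for Fgb and −0.54 ± 0.36 for Fgg (limma adjusted p = 0.484, 0.691 and 0.436).

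Of 9 tested anticoagulant genes, 1 rose and 0 fell in ADREX against SHAM rats under ozone, where 6.04% of all genes rose. In the other 4 comparisons 0 passed by limma, edgeR or DESeq2. At an unadjusted p under 0.05 there were 1 with ozone in SHAM rats (18.4% of all genes) and 0 with ozone in ADREX rats (17.8%). There were 1 for the difference (12.9%), 3 in air (20.2%) and 3 under ozone (31.2%). Serpina10, the inhibitor that needs protein Z to block activated F10, had 4516, 3513, 3112 and 2211 normalized counts in ADREX ozone libraries 81 to 84, against 1789, 1798, 2270 and 1730 in SHAM ozone libraries 17 to 20. Library 84, at 2211, lay within the SHAM range and the other 3 above it. In air Serpina10 was also higher, though not called, at 3124 ± 678 in ADREX and 2100 ± 431 in SHAM livers (SD, n = 4 each), with overlap. The Serpina10 change under ozone was 0.78 ± 0.22 on the log2 scale (SE; limma adjusted p = 0.028), and it was positive in all 31 alternative settings. The call was lost without any of 6 single libraries, SHAM ozone 17, 18 and 20 and ADREX ozone 81, 82 and 83 (0.62 to 0.80; adjusted p from 0.0501 to 0.0807), with the neural score in the model (0.69; adjusted p = 0.0794) and without the 3 libraries of highest neural sum (0.45; adjusted p = 0.336). Proc, which encodes protein C, gave 0.42 ± 0.21 in that comparison (limma adjusted p = 0.175) and 0.23 ± 0.21 in air (limma adjusted p = 0.554).

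Of 6 tested genes of fibrinolysis and its inhibitors, 0 passed by limma in any of the 5 comparisons. An unadjusted p under 0.05 was reached by 0 for ozone in SHAM (18.4% of all genes) or in ADREX (17.8%). It was reached by 1 for the difference (12.9%), by 2 in air (20.2%) and by 1 under ozone (31.2%). DESeq2 called 1, Cpb2 in air (6.53% of all genes), and edgeR called 0. Cpb2, a carboxypeptidase that slows plasmin by trimming fibrin, stood at 15866 to 17654 normalized counts in ADREX air livers and 9556 to 14526 in SHAM air livers, which do not overlap (0.54 ± 0.18 on the log2 scale, SE; limma adjusted p = 0.103; DESeq2 0.035). Serpinf2, the direct inhibitor of plasmin, gave −0.01 ± 0.27 in air (limma adjusted p = 0.983) and 0.11 ± 0.27 under ozone (limma adjusted p = 0.816).

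F2, F7, F9 and F10 need vitamin K, which Ggcx uses to modify them and Vkorc1 recycles, and Lman1 with Mcfd2 carries F5 out of the endoplasmic reticulum. Of the 4 tested genes of this list, 0 rose and 1, Lman1, fell in ADREX against SHAM rats under ozone (6.48% of all genes fell). In the other comparisons 0 passed by limma, edgeR or DESeq2. At an unadjusted p under 0.05 there was 1 with ozone in SHAM rats, Mcfd2 (18.4% of all genes), and 0 with ozone in ADREX rats (17.8%). There were 0 for the difference (12.9%), 2 in air (20.2%) and 2 under ozone (31.2%). Lman1 had 1032, 734, 896 and 1029 normalized counts in ADREX ozone libraries 81 to 84, against 1459, 1435, 1212 and 1680 in SHAM ozone libraries 17 to 20, with no overlap. Its change was −0.65 ± 0.19 on the log2 scale (SE; limma adjusted p = 0.0358). Lman1 was lower in air too, though not called there, at 1013 ± 144 in ADREX and 1557 ± 435 in SHAM livers (SD, n = 4 each). Those groups overlapped. The call was lost without any of 5 single libraries, SHAM ozone 17, 18 and 20 and ADREX ozone 82 and 83 (−0.65 to −0.55; adjusted p from 0.0547 to 0.111), with the neural score in the model (−0.47; adjusted p = 0.131) and without the 3 libraries of highest neural sum (−0.58; adjusted p = 0.216). Vkorc1 also did not overlap, with 1017 to 1249 in ADREX ozone livers and 1295 to 1833 in SHAM ozone livers (−0.55 ± 0.18; limma adjusted p = 0.0603; edgeR 0.0354; DESeq2 0.0167). Ggcx gave −0.47 ± 0.24 (limma adjusted p = 0.185), and Mcfd2 0.00 ± 0.12. With ozone Mcfd2 was higher than in air without overlap in both surgery groups. It stood at 4063 to 4527 against 3293 to 3749 in SHAM livers (0.27 ± 0.12, limma adjusted p = 0.233). In ADREX livers it stood at 4174 to 4404 against 3230 to 4003. Groups did not overlap for 11.1% and 9.97% of all genes in these comparisons.

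**Figure D4:**
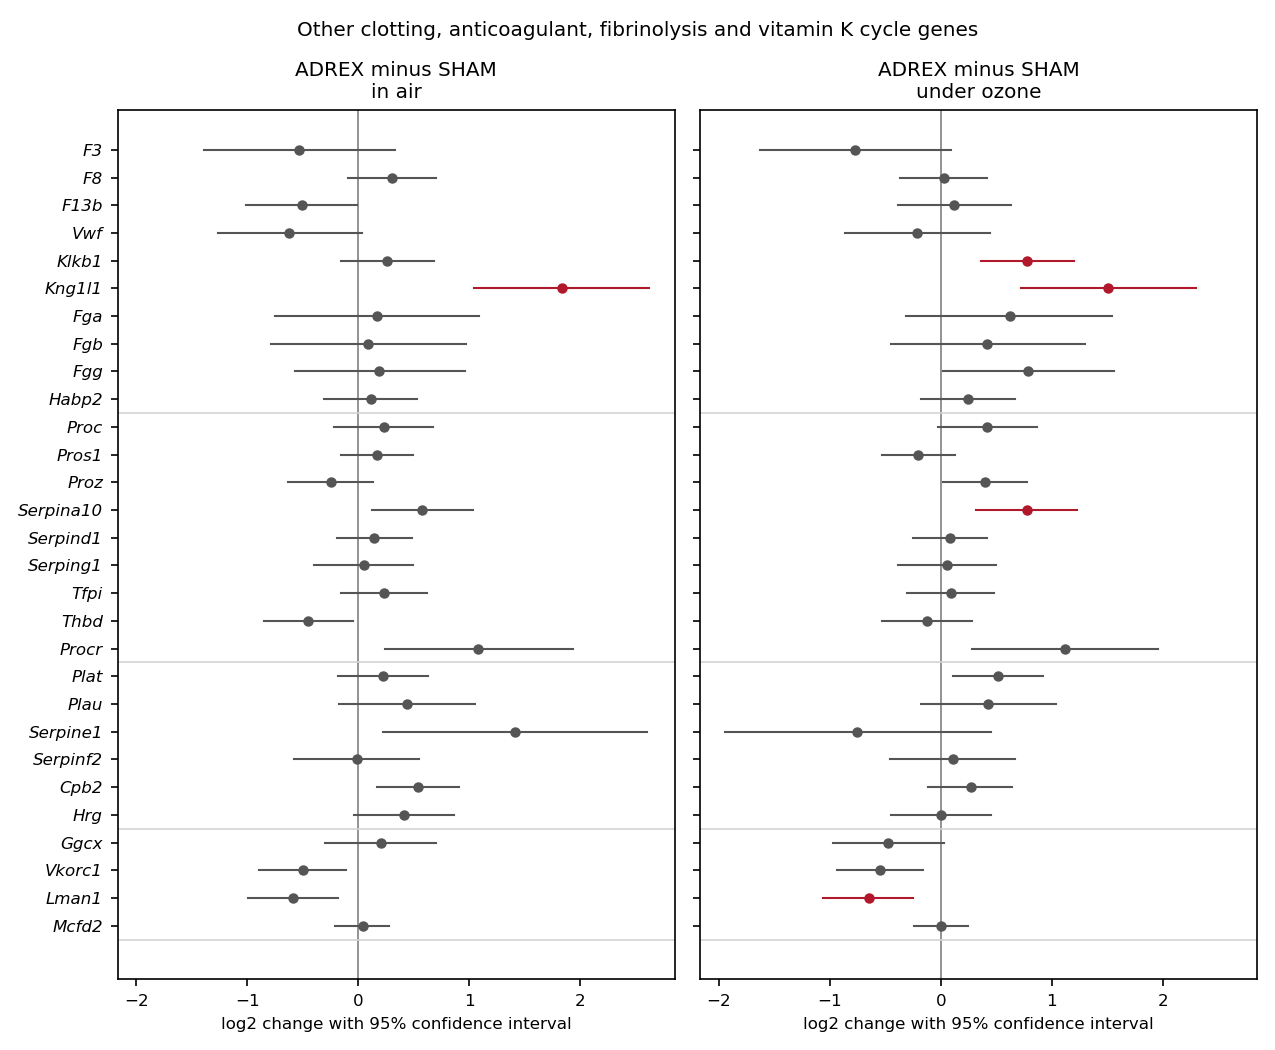
Log2 changes with 95% confidence intervals (horizontal axis) of the tested clotting, anticoagulant, fibrinolysis and vitamin K cycle genes outside the 9, for ADREX against SHAM in air (left) and under ozone (right), with genes that passed in red. Kng1l1 lies right of 0 in both panels (1.83 and 1.51), and Lman1 left of 0 under ozone (−0.65).

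Among 8 transcription factors known to bind promoters of liver clotting genes, all tested, Esr1 fell and Dbp rose in adrenalectomized rats in both exposures. Esr1, the estrogen receptor, had 145, 84.8, 84.5 and 288 normalized counts in ADREX ozone libraries 81 to 84 and 147, 162, 293 and 139 in ADREX air libraries 65 to 68, against 324 to 961 in SHAM ozone livers and 689 to 1467 in SHAM air livers. Its change was −2.41 ± 0.40 on the log2 scale in air (SE; limma adjusted p = 0.00338; 2.03% of all genes fell) and −2.26 ± 0.40 under ozone (limma adjusted p = 0.00233). Dbp, a factor whose liver level follows the daily clock, stood at 637 to 832 in ADREX ozone livers and 131 to 821 in ADREX air livers, against 87.1 to 399 in SHAM ozone livers and 32.1 to 265 in SHAM air livers. ADREX against SHAM gave 2.64 ± 0.65 for Dbp in air (limma adjusted p = 0.0339) and 2.44 ± 0.65 under ozone (limma adjusted p = 0.0233). The Dbp call in air was lost in 9 of 31 alternative settings, with edgeR (2.37; adjusted p = 0.0633), with the neural score in the model (2.47; adjusted p = 0.0898), in a fit to the compared groups alone (adjusted p = 0.102), with a robust spread (adjusted p = 0.0544), and without SHAM air 1 or 4 or ADREX air 65, 66 or 68 (2.25 to 2.70; adjusted p from 0.0618 to 0.124). Under ozone it was lost in 6 of 31, with the neural score in the model (2.27; adjusted p = 0.0569), without the 3 libraries of highest neural sum (2.94; adjusted p = 0.0633), and without SHAM ozone 17, 19 or 20 or ADREX ozone 82 (2.23 to 2.40; adjusted p from 0.0556 to 0.0739). Both Esr1 calls were kept in all 31. For Dbp the groups overlapped in air, where ADREX air 67, at 131, lay within the SHAM range, and not under ozone. No member promoter held the Dbp or the full estrogen motif.

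With ozone in SHAM rats 0 of the 8 factors passed by limma. An unadjusted p under 0.05 was reached by 2, Nr3c1 and Onecut1 (18.4% of all genes). DESeq2 called both (4.19% of all genes) and edgeR called Onecut1 alone (1.38%). Nr3c1, the glucocorticoid receptor, stood at 1731 to 2997 in SHAM ozone livers and 3121 to 4846 in SHAM air livers, which did not overlap (−0.75 ± 0.21 on the log2 scale, SE; limma adjusted p = 0.0889; DESeq2 0.0359). Hnf4a averaged 7493 ± 2849 in ADREX ozone livers, 8713 ± 1760 in ADREX air livers, 10815 ± 2744 in SHAM ozone livers and 10241 ± 1693 in SHAM air livers (SD, n = 4 each), and passed in none of the 5 comparisons. Onecut1, which encodes HNF6, averaged 35.6 normalized counts in SHAM ozone livers and 259 in SHAM air livers, without overlap (−2.53 ± 0.70; limma adjusted p = 0.0761). For ozone in ADREX rats and for the difference 0 of the 8 factors passed by limma or had an unadjusted p under 0.05. DESeq2 called 1 of them for ozone in ADREX rats, Onecut1 (4.46% of all genes), and edgeR called 0 (0.383%).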

How the data were processed

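The 9 genes and all lists were chosen with earlier results of these data known, so no list is independent evidence. The submitters' processing notes name Partek, DESeq2 and rat build rn6; the versions, aligner, counting method and annotation were not given in the sources used here. In the deposited table the authors give a signal per gene, a read count scaled by a factor for each library, for 22587 symbols in 16 libraries, and all columns were used. Whole reads could be recovered from the smallest step of each column (tolerance 0.01, met by 100% of values; largest deviation 0.000132), and their totals ran from 8372891 to 14096246. RPM are recovered reads per 1000000. A limit of 3 reads covers counting error only.

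The test used log2(value + 1) of the 12791 genes whose mean was at least 14.7, that is 1 in 1000000 of the median column total. It was limma-trend 3.58.1 (R 4.3.3), two-sided, with a mean for each of the 4 groups over all libraries and 12 residual plus 4.4 prior degrees of freedom. Fold changes are on that scale. P-values were adjusted by Benjamini-Hochberg over the whole set, at a threshold of 0.05. Recovered reads were also tested with edgeR 4.0.16 and DESeq2 1.42.0, and the script was tested on simulated data. The neural score is log2 of 1 plus the RPM summed over 25 markers.

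Named genes were the 9 members, list genes that passed, the genes Fga, Fgb, Fgg, Proc, Serpinf2, Cpb2, Klkb1, Vkorc1 and Ggcx in any case, and the 2 genes most like each member; a few of these genes are not reported here. Mcfd2, Nr3c1, Hnf4a and Onecut1 were named after their values were seen. Other settings tried were a pseudocount of 0.5 or 10, other filters, 3 other scalings, array weights, a robust spread, a fit to the compared groups alone, the neural score in the model, and leaving out libraries. The labels hold 13 distinct index numbers and no sequencing batch or date. Promoters were matched by symbol to the RefSeq table of assembly GRCr8.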

Additional observations from a re-analysis of the deposited data

Results flagged for a closer look

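Among 36 sets of 4 libraries (9 genes in 4 groups), 2 held a library set far apart from the other 3, and chance alone gives about 1 in 20. F10 in ADREX ozone livers stood at 4761 normalized counts in library 82, against 7227 to 7405 in the other 3, a gap of 0.933 of the group's range. That library also had the highest neural marker sum, 4951 RPM, whose part in the value was not tested. F2 in ADREX air livers stood at 29019 normalized counts in library 67, against 19370 to 20524 in the other 3, a gap of 0.88 of the range.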

How the results depend on the processing

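No paired analysis was possible because the groups share no replicate numbers (1 to 4, 17 to 20, 65 to 68 and 81 to 84). The number of members that passed stayed at 0 for ozone in SHAM rats in 31 alternative settings and for the difference in ozone effects in 30. For ozone in ADREX rats 1 member passed with array weights and 1 with DESeq2, F5 both times, and for ADREX against SHAM in air 1 with array weights, F11. For ADREX against SHAM under ozone 1 passed with equal totals (F2), where 11.2% of all genes passed. With array weights 4 passed (F2, F5, F10 and Serpinc1), and with DESeq2 2 (F2 and F5), beside 17.1% of all genes for DESeq2. With the neural score as a covariate 1 passed (F2), beside 8.55%. At an adjusted p under 0.1 it was 2 (F2 and F5), and the share of all genes at 0.1 is not given here. With each library left out singly 0 to 3 passed, 3 being the count without ADREX ozone 82 (7.76% of all genes). With array weights 2.58% of all genes passed for ozone in ADREX rats, against 0.125% without them, 11.4% in air, against 3.53%, and 26.7% under ozone, against 12.5%. TMM scaling shifted the median change of all genes under ozone by −0.104, and equal totals shifted it in air by 0.112, so changes under those scalings are relative to these shifts. Of 45 member changes 15 had at least 1 alternative value of the opposite sign, and the largest of these was 0.24 on the log2 scale in size; none was called, and the cause was not tested. For ozone in SHAM rats F5 reached 0.04 with equal totals, 0.2 with the neural covariate, 0.01 without the 3 libraries of highest neural sum and −0.19 to 0.12 as single libraries were left out. F12 reached 0.03, 0.04, 0.04 and −0.16 to 0.04 under the same 4 settings. For ozone in ADREX rats F7 was −0.05 with TMM, −0.02 with median of ratios, −0.01 with edgeR and −0.13 to 0.2 without single libraries. F11 was 0.18 with the neural covariate, 0.3 without the 3 neural-rich libraries and −0.33 to 0.22 without single libraries; Plg was 0.12, 0.18 and −0.19 to 0.17 there and 0.06 with array weights; F12 was 0.13 without the 3 libraries and −0.19 to 0.05 without single ones. For the difference F10 was 0.04 with array weights, 0.11 without the 3 libraries and −0.12 to 0.13 without single ones, F12 was 0.04, 0.1 and −0.16 to 0.09 under these settings, and F11 was −0.01 to 0.54 without single ones. In air F2 was 0.12 and Plg 0.06 with the neural covariate, F12 was −0.03 with array weights and −0.07 to 0.14 without single libraries, and Serpinc1 was −0.01 with TMM, −0.03 with array weights and −0.04 to 0.07 without single libraries. Under ozone F9 was 0.03 with array weights and −0.18 to 0.05 without single libraries, and Plg was −0.06 with TMM, −0.03 with median of ratios, −0.01 with edgeR and −0.08 to 0.28 without single libraries. Of 279 alternative values of the 9 changes called in other pathway genes, 243 kept their call and direction, 36 lost the call and 0 turned round. With 4 libraries a group, member SEs set what could be detected. They were 0.17 to 0.25 between pairs of groups and 0.24 to 0.36 for the difference in ozone effects. Counting depth did not limit these genes.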
